A study of Homo sapiens with 6 samples.

Results

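The proteasome genes described here are the 48 genes of the deposited table whose symbols are PSMA1 to PSMA8, PSMB1 to PSMB11, PSMC1 to PSMC6, PSMD1 to PSMD14, PSME1 to PSME4, PSMF1 and PSMG1 to PSMG4, out of 28395 genes in all. All 48 symbols were found. Their number per class was 8 for the alpha ring, 11 for the beta ring, 6 for the ATPases of the cap and 14 for the other genes named for it. The activators had 4, the inhibitor PSMF1 made 1 and the assembly chaperones 4. RNA was sequenced from A375 cells, an established human melanoma line whose genotype is given as WT. The controls (OLO) received 0.01% olive oil and the treated cells (OZO) 0.01% ozonated olive oil, both for 6 h and each group has 3 libraries. The study describes its transcriptome replicates as independent experiments. The only expression value used here is the authors' mean level of each gene over all 6 libraries, OLO and OZO together. It has no spread between libraries, so no test was run and nothing below compares OZO with OLO.

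The proteasome is the protease complex that degrades ubiquitin-tagged proteins in the cytosol and nucleus. Its 20S core is a barrel of 2 outer rings of alpha subunits, which gate the entrance, and 2 inner rings of beta subunits, 3 kinds of which cut peptide bonds. The 19S cap binds ubiquitin, removes it, and unfolds and feeds the substrate into the barrel through a ring of ATPases. Interferon replaces the cutting subunits by immunoproteasome subunits, which change the peptides offered to T cells. Many of these genes are known to be raised together by NFE2L1 in the proteasome recovery response. The antioxidant response factor NFE2L2 is known to raise some of them after oxidants and electrophiles.

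The deposited level is a mean log2 CPM (the share of counted fragments that belong to the gene, on a log2 scale), in which 0.5 is added to each count before the logarithm is taken. The lowest value of the table, -5.20, belongs to the 7012 genes without a counted fragment in any library. From it every level was converted into an implied number of fragments per library, and the geometric mean library size came out at 18409903 counted fragments. The libraries were sequenced as read pairs. Whether pairs or single reads were counted is not given in the sources used here, so a fragment means a counted unit of either kind. This scale counts fragments, of which a longer transcript gives more, so orders given on it are orders of fragment number. Levels of different genes are compared per kb of exon, with lengths from GENCODE 44. Which exons the authors' counting used is not given in the sources used here. The exons counted may thus differ from those in the length, and this was not tested. At least 10 fragments per library were implied for 13773 genes, and the median of those genes was 4.47 log2 CPM. The lineage genes SOX10 (919 fragments) and MITF (499) were present, and AXL stood at 4915 fragments. Pigment genes were low: MLANA stood at 36.6 fragments, PMEL at 5.75 and DCT at 4.74, and TYR was listed at 0. Of the other cell types checked, no fibroblast marker exceeded 22.3 fragments (COL1A1) and no leukocyte marker 14.7 (CD14), while the keratinocyte markers ranged from 0 for KRT1 to 469 for KRT10.

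Promoter sequence was looked at for motifs of factors that act on these genes. RefSeq starts on GRCh38.p14, taken with 250 bases before and 50 after, were matched for 42 of the 48 members and for 18304 genes of the table. Some genes had several starts (51 for the 42 members). A gene was counted once if the window of any of its starts held a match on either strand. The interferon-response type motif GAAANNGAA was present in 8 members (19%) and in 9.23% of all genes. In the 250 bases before the start alone it was present in 5 members (11.9%) and in 7.94% of all genes. One spelling of it, GAAAGCGAA, was chosen after the matches were seen. Each of its matches is also a match of the looser motif. It was present in 5 members (11.9%) and in 77 of the 18304 genes (0.421%), or in 3 members (7.14%) and 0.355% of all genes before the start alone. These 5 stretches are all the matches of that spelling among the members. They belong to the immunoproteasome genes PSMB10 and PSMB8, to both partners of an interferon-inducible activator and to an assembly chaperone. The immunoproteasome gene PSMB9 was also searched and held neither this spelling nor the looser motif. Capitals mark the motif, or its reverse complement, with 10 bases on either side, on the strand of the gene.
PSMB10, chr16:67936853-67936881, minus strand: gggtaaaggcGAAAGCGAAagcaggaagt
PSMB8, chr6:32844032-32844060, minus strand, reverse complement: atctgtggctTTCGCTTTCacttcctcct
PSME1, chr14:24136190-24136218, plus strand, reverse complement: ccctaccgctTTCGCTTTCccttcgcggt
PSME2, chr14:24146620-24146648, minus strand: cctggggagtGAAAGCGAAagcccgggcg
PSMG4, chr6:3258904-3258932, plus strand: ttccggggccGAAAGCGAAagcgcgctcg

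The first base of the motif lay at -21 from a RefSeq start in PSMB10, -28 in PSME2, -33 in PSMG4, -3 in PSMB8 and 6 in PSME1. In PSMB8 and PSMG4 that start lay inside the gene and not at its outer end. Only the 250 bases before and 50 after a start were searched, so every match had to lie near one. In the same order the 5 genes had mean levels of 2.54, 5.68, 2.06, -4.94 and 5.60 log2 CPM, fewer fragments each than the median of the 44 members with at least 10 fragments (7.65 log2 CPM). For PSMB8, most of the transcript recurs on further copies of its region in hg38, described below. What this meant for its level was not tested.

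The ETS-type motif ACTTCCG was present in 15 members (35.7%) and in 10.4% of all genes, and the antioxidant response core TGACNNNGC in 15 members (35.7%) and in 17.6% of all genes. The CCAAT box was present in 20 members (47.6%) against 41.3% of all genes, and GCATGCGC, of the nuclear respiratory factor type, in 2 members (4.76%) against 4.62%. Examples of the first 2 motifs are shown from 3 members each, among them subunits of the core and of the cap.
PSMB4, chr1:151399524-151399550, plus strand: ctgaaggatcACTTCCGcttccgttgg
PSMC2, chr7:103347609-103347635, plus strand: agcccaatttACTTCCGgtggggaagg
PSMD12, chr17:67366570-67366596, minus strand: tgcgcgggcaACTTCCGgtgtgggtga
PSMA4, chr15:78540650-78540678, plus strand: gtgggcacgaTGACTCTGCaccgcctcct
PSMD3, chr17:39980760-39980788, plus strand: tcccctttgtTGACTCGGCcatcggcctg
PSMD12, chr17:67366724-67366752, minus strand: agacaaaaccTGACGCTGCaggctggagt

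**Figure D1:**
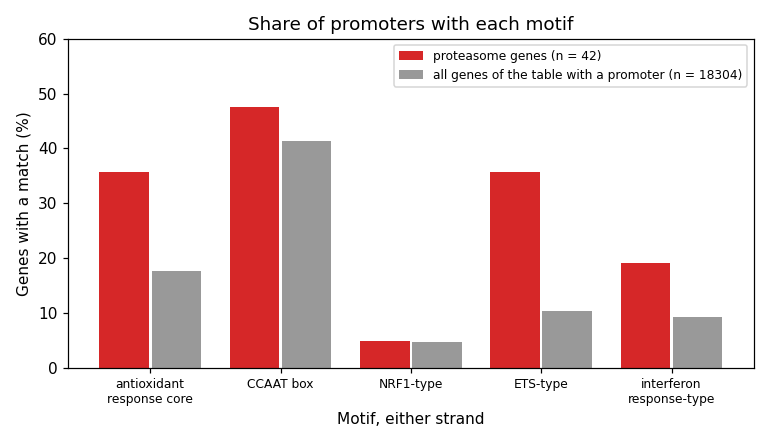
Share (%) of the 42 proteasome genes and of the 18304 genes of the table with a RefSeq promoter that hold each of 5 motifs on either strand. The ETS-type and antioxidant response bars of the proteasome genes both reach 35.7%, against 10.4% and 17.6% of all genes, and the other 3 motifs stand at 47.6%, 4.76% and 19% of the members.

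A match describes letters only and was not tested for binding. Both the ETS-type and the antioxidant-type motif were present in 5 members (11.9%), namely PSMA4, PSMB3, PSMC4, PSMD12 and PSME4, and in 1.94% of all genes, a count made after the matches were seen. This count pools all starts of a gene, and in PSMA4 both motifs lay in the windows of different starts.

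By fragment number the proteasome genes ranked high in the table. Of the 48 members, 44 had at least 10 fragments per library, 39 stood at or above the 75th percentile of the genes with a fragment, 30 at or above the 90th and 24 at or above the 95th. The median member stood at percentile 94.7. Their CPM values added up to 8568, which is 0.857% of all counted fragments by these means. The genes named for the cap accounted for 4785 CPM of this sum, the core for 2869, the activators for 710, the PSMG chaperones for 129 and PSMF1 for 73.6. The value for the cap includes PSMD5, PSMD9 and PSMD10, which are chaperones of its base. The 4 members at or under a floor of 3 fragments per library were PSMA8, PSMB8, PSMB9 and PSMB11.

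**Figure D2:**
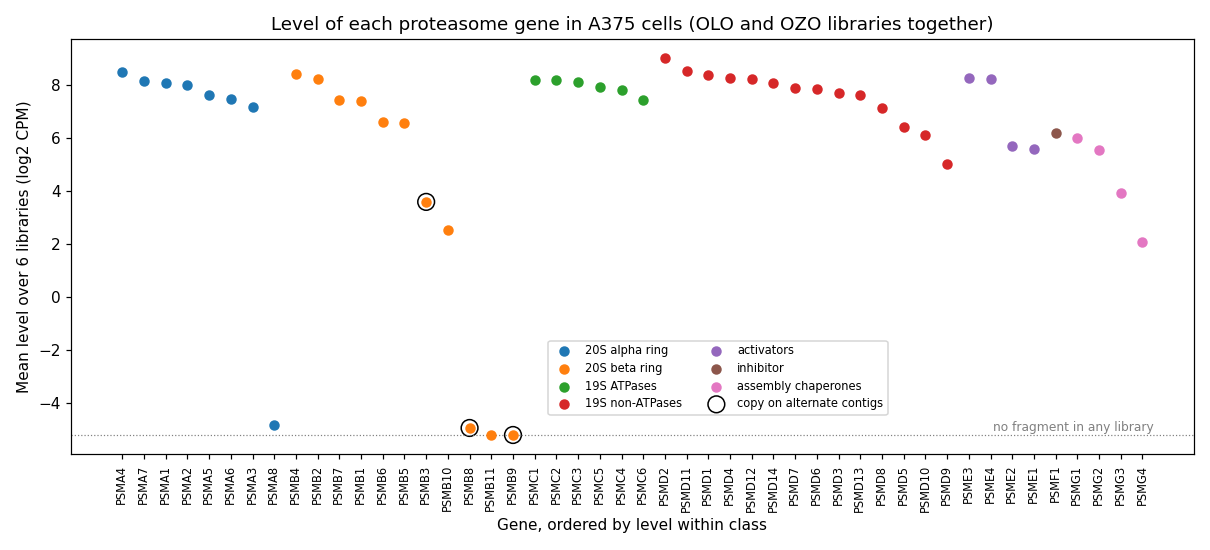
Mean level of each of the 48 proteasome genes in log2 CPM over all 6 libraries, as the authors give it, ordered within class and coloured by class. Most points lie between about 5.03 (PSMD9) and 9.02 (PSMD2), PSMB3, PSMB10, PSMG3 and PSMG4 lie lower, and PSMA8, PSMB8, PSMB9 and PSMB11 lie at or next to the dotted line of genes without a fragment; circles mark the 3 members whose transcript is mostly repeated on alternate contigs.

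The outer ring was expressed throughout, apart from its testis form. The 7 alpha subunits found in all cells lay within 7.15 to 8.48 log2 CPM, or 2616 to 6576 fragments per library. PSMA4 had the most fragments at 8.48 log2 CPM and PSMA3 the fewest at 7.15, with PSMA2 in the middle at 7.99. PSMA8, which takes the place of PSMA7 in male germ cells, stood at -4.82 log2 CPM, the value given by 2 fragments in 1 library and none in the other 5. Per kb of all annotated exons PSMA7 was the highest of the 7 at 7.33 log2 CPM per kb and PSMA6 the lowest at 4.75. The place of PSMA6 depended on the length taken: per kb of the canonical transcript it stood at 7.42, and PSMA5 was then the lowest at 5.69. Of the 31-base words of PSMA6, 33.5% occurred also at other places on the assembled chromosomes, and what this meant for the assignment of its longer reads was not tested.

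The inner ring held members from 0 to 6240 fragments per library. PSMB4, a structural subunit, had the most at 8.41 log2 CPM (6240 fragments), followed by PSMB2 at 8.23 (5544), PSMB7 at 7.44 (3194) and PSMB1 at 7.41 (3130). PSMB6 and PSMB5 stood at 6.60 and 6.55 log2 CPM (1786 and 1728 fragments). PSMB3 had fewer fragments than any of these, at 3.59 log2 CPM and 221 fragments, and at 3.36 log2 CPM per kb of all exons it was lower per length too. PSMB10 followed at 2.54 log2 CPM (107 fragments). PSMB8 stood at -4.94 log2 CPM, the value given by 1 fragment in 1 library, and PSMB9 and the thymus-specific PSMB11 were listed at 0.

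The cutting subunits of the standard core were PSMB6 (caspase-like), PSMB7 (trypsin-like) and PSMB5 (chymotrypsin-like, the target of bortezomib). They stood at 6.07, 6.60 and 5.92 log2 CPM per kb of all exons. PSMB7 was thus 1.45-fold higher per length than PSMB6 (95% counting interval 1.41 to 1.48) and 1.60-fold higher than PSMB5 (1.56 to 1.64). PSMB6 exceeded PSMB5 by 1.11-fold per length (1.08 to 1.14). The order of these 3 genes was the same per length of the longest or canonical transcript and without length. The folds changed with the scale, beyond these intervals. On those scales, in that order, PSMB7 exceeded PSMB5 by 2.098-fold, 1.961-fold and 1.848-fold, and PSMB6 by 1.583-fold, 1.497-fold and 1.788-fold. PSMB6 exceeded PSMB5 by 1.326-fold, 1.31-fold and 1.034-fold. All such intervals cover the counting error of the pooled libraries only, since the spread between libraries is not in the level used.

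Their interferon-inducible counterparts were much lower or not seen. PSMB10, which replaces PSMB7, stood at 1.84 log2 CPM per kb of all exons, and PSMB7 was 27.1-fold higher per length (25.1 to 29.4). With the canonical transcript the ratio was 29.6 (27.4 to 32.1). No fold is given for PSMB9 against PSMB6 or PSMB8 against PSMB5, because genes that every cell uses were also listed at or near 0 in the same region of chromosome 6.

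PSMB8 (chr6:32840717-32844679) and PSMB9 (chr6:32854192-32859851) are 9512 bases apart in the major histocompatibility complex, which hg38 holds in several further copies as alternate contigs. Of the 31-base words of their canonical transcripts, 87.5% and 85.8% occurred also on the 261 alternate contigs. The same was true of 80.3% of the words of PSMB3 (chr17:38752741-38764225), which belongs to every standard core. No other member exceeded 8.37% (PSMB2), and 35 members had no such word. PSMB10, on chromosome 16, was among the 35.

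Some genes with such copies that all cells use were low too, and the examples here were picked by hand. BRD2 on chromosome 6, with 91.5% of its words on alternate contigs, was higher at 89.5 fragments. RPS18, a protein of the small ribosomal subunit, had 74.2% of its words on alternate contigs and stood at 1.89 fragments per library. TUBB, the main beta tubulin, had 96.7% and stood at 3.91 fragments, and DDX39B, an RNA helicase of splicing and export, had 83.3% and was listed at 0. Close to PSMB3, RPL23 with 5.42% of its words on alternate contigs stood at 9.41 log2 CPM (12490 fragments).

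Over all protein-coding genes, 63.1% of the 12586 without such words had at least 10 fragments and 13.0% had none in any library. Of the 5809 with some but fewer than 50% of their words on alternate contigs, 4356 had at least 10 fragments and 7.76% had none. Of the 783 with 50% or more, 17.1% had at least 10 fragments and 51.9% had none, although the highest of these genes reached 10.14 log2 CPM. On chromosome 6, 4 of 171 such genes had at least 10 fragments, and on chromosome 17, 23 of 124. The part of these copies in the levels of PSMB3, PSMB8 and PSMB9 was not tested. Whether the authors' alignment index held the alternate contigs is not given in the sources used here.

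**Figure D3:**
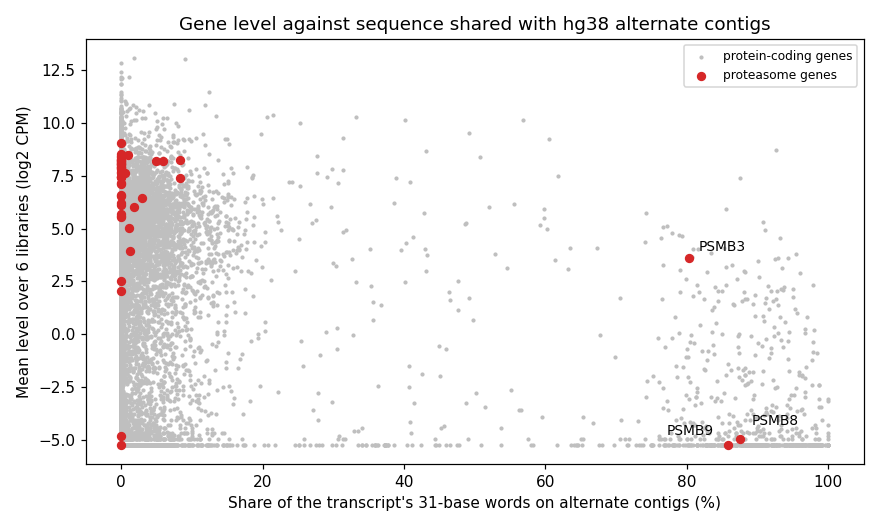
Mean level (log2 CPM) of each protein-coding gene against the share (%) of its canonical transcript's 31-base words found also on hg38 alternate contigs, with the 48 proteasome genes in red. The red points at 80.3% to 87.5% are PSMB3, PSMB8 and PSMB9, and the other 45 members lie at or below 8.37%.

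Leaving PSMB3 aside, the 13 other standard subunits of the core had between 1728 and 6576 fragments per library with a median of 3637, a 3.81-fold range. The fewest fragments among the 13 were 7.82 times those of PSMB3. Per length the lowest of the 13 was 2.61-fold above PSMB3 with all exons and 3.28-fold with the canonical transcript. Per kb of all exons the 13 ranged from 4.75 (PSMA6) to 7.33 (PSMA7) log2 CPM per kb, and per kb of the canonical transcript from 5.69 (PSMA5) to 8.53 (PSMB4).

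The ATPase ring of the cap was narrow in fragment number. Its 6 members, which form the hexamer that unfolds substrates, lay between 7.42 log2 CPM for PSMC6 and 8.19 for PSMC1, or 3158 to 5380 fragments per library. PSMC2, PSMC3, PSMC5 and PSMC4 stood between them at 8.18, 8.11, 7.92 and 7.82 log2 CPM. Per kb of all exons the order was different: PSMC3 was the highest at 6.93 log2 CPM per kb, PSMC4 stood at 6.47, and PSMC6 was again the lowest at 4.52. These places depended on the length taken. Per kb of the canonical transcript PSMC1 was the lowest at 6.06, below PSMC6 at 6.31. PSMC5 was then the highest at 7.503, next to PSMC3 at 7.489. PSMC1 has 13 RefSeq pseudogenes, none of which is listed in the table, and 41.0% of its 31-base words recur on the assembled chromosomes, as do 34.6% of those of PSMC6. The share was 5.76% for PSMC3.

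Among the 14 other genes named for the cap, PSMD2, a scaffold and ubiquitin-binding subunit of the base, had the most fragments of the whole set at 9.02 log2 CPM (9586 fragments), and stood at 6.71 log2 CPM per kb of all exons. PSMD11 and PSMD1 followed at 8.51 and 8.39 log2 CPM (6725 and 6170 fragments). Per kb of all exons PSMD2 exceeded its paralogous partner PSMD1, the other large scaffold of the base, 4.95-fold (4.88 to 5.01), but per kb of the canonical transcript 1.77-fold. The ubiquitin receptor PSMD4 stood at 8.26 log2 CPM (5642 fragments), with 34.8% of its words repeated elsewhere.

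PSMD14, the metalloprotease that strips ubiquitin from substrates, stood at 8.06 log2 CPM (4906 fragments), and PSMD7, its partner in the lid, at 7.88 (4350). Which of both was higher per length depended on the length: PSMD7 exceeded PSMD14 by 1.26 log2 units per kb of all exons and was lower by a difference of -0.23 per kb of the canonical transcript. The remaining lid subunits PSMD12, PSMD6, PSMD3, PSMD13 and PSMD8 stood between 7.13 (PSMD8) and 8.21 (PSMD12) log2 CPM.

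The 3 members of this group with the fewest fragments were PSMD5 at 6.43, PSMD10 at 6.11 and PSMD9 at 5.03 log2 CPM (1582, 1274 and 600.3 fragments). All 3 carry cap symbols but are chaperones that help to build the base and are not part of the finished cap. Per kb of the canonical transcript they were again the lowest of the group, with PSMD5 at 4.67, PSMD10 at 5.56 and PSMD9 below both, and PSMD12 came next at 6.09 log2 CPM per kb. PSMD9 was also the lowest of the group per kb of all exons, at 1.90 log2 CPM per kb, but PSMD10 stood at 4.86 on that scale, above PSMD6 (4.68) and PSMD1 (4.41).

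The activators fell into 2 pairs by fragment number. PSME3, the nuclear activator, and PSME4, a large nuclear activator linked to histone turnover, stood at 8.28 and 8.23 log2 CPM (5706 and 5532 fragments). PSME1 and PSME2, which form the interferon-inducible ring, stood at 5.60 and 5.68 log2 CPM (891 and 946 fragments). PSME3 was 2.21-fold above PSME1 per kb of all exons (2.14 to 2.27) and 1.94-fold per kb of the canonical transcript. PSME4, the longest gene of the class, stood at 4.85 log2 CPM per kb of all exons, next to PSME1 at 4.77, and at 5.37 per kb of the canonical transcript, below PSME1 at 5.65. PSME1 and PSME2 lie 4402 bases apart on chromosome 14 (chr14:24136194-24138962 and chr14:24143365-24146610) and on opposite strands, and both of their promoters hold the GAAAGCGAA stretch printed above. Their order was not settled: PSME1 exceeded PSME2 by 0.93 log2 units per kb of all exons, and the difference was -0.37 per kb of the canonical transcript and -0.09 without length. PSME2 also has 6 pseudogenes and 38.1% repeated words.

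PSMF1, an inhibitor of the core in vitro, stood at 6.20 log2 CPM (1354 fragments). Its exons cover 10361 bases, and per kb of them it stood at 2.83 log2 CPM per kb.

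The assembly chaperones were the lowest class of several genes, per length and in fragments. PSMG1 and PSMG2, which act as a pair in building the alpha ring, stood at 5.99 and 5.53 log2 CPM (1173 and 851 fragments). PSMG3 and PSMG4, the second pair, stood at 3.92 and 2.06 log2 CPM (278 and 76.4 fragments), and PSMG4 had the fewest of the 44 members with at least 10 fragments. Per kb of all exons PSMG3 exceeded PSMG4 19.1-fold (17.3 to 21.2), but per kb of the canonical transcript 1.99-fold (1.80 to 2.21). PSMG1 exceeded PSMG2 between 7.71-fold and 8.29-fold per kb of all exons (95% counting interval), but the log2 difference was -0.25 per kb of the canonical transcript. The exons of PSMG2 and PSMG4 together cover 12490 and 10415 bases, against canonical transcripts of 1070 and 785 bases.

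Class medians were set side by side without the 3 members with alternate copies and the members at or under 3 fragments. Per kb of all exons they were 6.07 log2 CPM per kb for the beta ring, 5.70 for the ATPases, 5.52 for the alpha ring, 5.28 for the other cap genes, 4.81 for the activators and 2.41 for the chaperones. The median of all genes with at least 10 fragments was 2.16 on that scale. Per kb of the canonical transcript the medians were 6.88, 6.87, 7.42, 6.62, 5.83 and 4.30 in the same order of classes. Chaperones were the lowest class of several genes and activators the next lowest on all 4 scales tried, while the order of the other 4 classes changed with the scale. Within the classes, 1 of 6 adjacent pairs of the beta ring differed by less than its counting error per kb of all exons and no adjacent pair of the other classes did. Over the whole ordered set 13 of 42 adjacent pairs did.

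**Figure D4:**
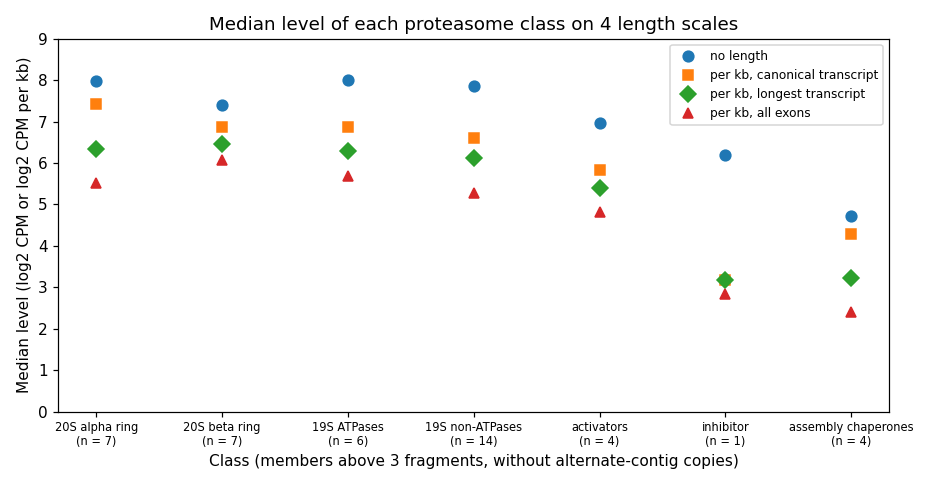
Median level of each proteasome class on 4 scales: log2 CPM without length, and log2 CPM per kb of the canonical transcript, of the longest transcript and of all annotated exons. The chaperones, from 2.41 to 4.73, lie below every other class of several genes on each scale, and the activators, from 4.81 to 6.96, lie next above them.

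The 21 other genes of the pathway were all present with at least 10 fragments, from 240 to 8571, and with a median of 7.20 log2 CPM. The substrate shuttles UBQLN1 and RAD23B had the most, both at 8.86 log2 CPM. POMP, the chaperone that completes the beta ring, stood at 8.21 log2 CPM (5439 fragments). On the scale per kb of all exons it stood at 5.91 log2 CPM per kb, above each of the 4 PSMG chaperones on that scale. NFE2L1, the transcription factor of the proteasome recovery response, stood at 7.90 log2 CPM (4412 fragments). Its activating protease DDI2 had the fewest fragments of the 21 at 3.71 log2 CPM (240 fragments), and the deglycosylase NGLY1, which acts on the same factor, stood at 5.41 log2 CPM (780 fragments). The deubiquitinases USP14 and UCHL5 of the cap stood at 8.37 and 7.89 log2 CPM, and the ubiquitin receptor ADRM1 at 6.93.

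The members are spread over 17 chromosomes, with 8 on chromosome 14 and 7 on chromosome 17. PSMB5 and PSMB11, 6991 bases apart on chromosome 14, stood at 6.55 log2 CPM and at 0 fragments. RefSeq lists 52 pseudogenes for 21 of the members, and none of them is in the table. Of the antisense genes named for members, PSMA3-AS1 was the highest at 5.11 log2 CPM (634 fragments) and PSMD6-AS2 the next at 3.41 (196). The kit keeps strand, but whether the counting used it is not given in the sources used here, and without it reads of PSMA3 and PSMA3-AS1 cannot be told apart where both overlap.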

How the data were processed

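Per the labels, RNA of 6 libraries was prepared with a directional kit and processed with HISAT2 2.1.0, featureCounts 2.1.1 and limma 3.58.1 on hg38. The deposited table gives the authors' mean log2 CPM of each gene over all libraries, which was used. Its other columns hold the authors' comparison of OZO with OLO (log2 fold change, t, p, adjusted p and B) and were not used, so the planned tests were not run. The depth was taken from the lowest level. As a check, products implied by low levels came out as odd whole numbers for 100% of 4278 genes (tolerance 0.01, products under 1000). Counting intervals are 95%, from 6 libraries, and would be too narrow if both reads of a pair were counted singly. Exon lengths came from GENCODE 44, matched for 25497 genes by Ensembl identifier, and coordinates from RefSeq for 27745. Exact 31-base words of canonical transcripts were searched on hg38. A transcript with at least 50% of its words on alternate contigs was counted as copied there. Python 3.11.15, numpy 2.4.6 and pandas 2.3.3 were used, and the conversion was tested on simulated data. Named genes were the highest, middle and lowest member per class, the cutting subunits, activators, PSMF1, chaperones and every member under 10 fragments. Members and lists were chosen with earlier results of these data known.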

Additional observations from a re-analysis of the deposited data

How the results depend on the processing

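No paired analysis was possible because the level used is a mean over all libraries, and for the same reason no library could be left out and no count test run. Class medians moved with the length taken. With all members above the floor they were, per kb of the longest transcript, 6.35 for the alpha ring, 6.42 for the beta ring, 6.30 for the ATPases, 6.12 for the other cap genes, 5.39 for the activators and 3.21 for the chaperones. Per kb of the canonical transcript, chosen after seeing the data, they were 7.42, 6.69, 6.87, 6.62, 5.83 and 4.30, and without length 7.99, 7.01, 8.01, 7.87, 6.96 and 4.73. With PSMD5, PSMD9 and PSMD10 counted as chaperones, the median of the other cap genes was 5.50 and that of the chaperones 2.94. The ratio of PSMB7 to PSMB10 was 29.6 with either transcript and 29.8 without length. The median percentile was 91.7 among genes with at least 10 fragments and 96.0 among all genes. Between all exons and the canonical transcript, 43 of 160 pairs of members of the same class changed order. Of the 9 differences between named genes recomputed on each scale, also chosen after seeing the data, 3 changed sign: PSME1 minus PSME2 was -0.37 per canonical transcript and -0.086 without length, PSMD7 minus PSMD14 was -0.23 and -0.17, and PSMG1 minus PSMG2 was -0.25 per canonical transcript. Of the alternatives chosen at the outset, 21 values moved by less than their counting or binomial error and 18 by more. Most of the 21 were class medians whose members the setting did not change, so the tally does not measure stability. Every planned change of length was among the 18, as was every change of the genes ranked against. In the 250 bases before the start alone, TGACNNNGC was present in 31% of members and 14.5% of all genes, CCAAT in 45.2% and 39.2%, ACTTCCG in 28.6% and 8.82%, and GAAANNGAA in 11.9% and 7.94%. The floor was set at 3 fragments per library, and levels of PSMA8, PSMB8, PSMB9 and PSMB11 were not detectable above it. For PSMB8 and PSMB9 the part of their copies on alternate contigs in this was not tested.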

Other observations

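Genes of peptide presentation beside the immunoproteasome genes on chromosome 6 were low too. They were chosen after their values were seen. The peptide transporter genes TAP1 and TAP2 stood at 0.366 and 0 fragments per library, and TAPBP, which helps to load peptides, at 0.683. Of their 31-base words 89.9% (TAP1), 94.2% (TAP2) and 94.2% (TAPBP) were also on alternate contigs. BRD2, with 91.5%, stood at 89.5 fragments and was the highest of the 4 such genes of chromosome 6 with at least 10 fragments. On chromosome 17, AATF (85.0%) stood at 0.527 and MRPL45 (85.6%) at 4.41 fragments.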
